A study of Rattus norvegicus with 10 samples.

Results

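Among the mRNAs that the study listed as higher in rat hearts after dexmedetomidine (DEX), 7 belong to ribosomal protein families. They are Rpl39, which encodes a ribosomal protein itself, and 6 near-copies of other ribosomal protein genes that the array lists as RGD1565117, RGD1559951, RGD1562381, LOC100362027, RGD1562394 and LOC103690975. These are 7 of the 20174 gene probes on the array. They were chosen by their higher mean in the DEX group than in the control group, so the group difference is described below without a test, while the covariation of the probes among rats of the same group was not used to choose them. The tissue was the anterior wall of the left ventricle from 10 rats, which were male Wistar animals of 250 to 350 g whose age is not given in the sources used here. DEX, an alpha2 adrenergic agonist used as a sedative, was infused into a vein of 5 rats (DEX group) for 10 min at 6 mcg/kg/h, then for 20 min at 0.7 mcg/kg/h, before 5 min of washout. The other 5 rats (control group) had saline infused in place of DEX. The study describes anesthesia with sevoflurane and butorphanol for the surgery of its ischemia model. Its protocol for the arrays does not restate the anesthesia. RNA was taken before any ischemia, labelled with Cy5 and hybridised to 1 Toray 3D-Gene array for each rat.

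Ribosomal proteins form, with ribosomal RNA, the small (Rps) and large (Rpl) subunits of the ribosome, which translates mRNA into protein. Cells make them in matched amounts, and their mRNAs are abundant in every tissue, the heart included. The mRNAs of the authentic genes begin with a run of pyrimidines that couples their translation to growth signals. They have also been copied back into mammalian genomes many times through their mRNA, so that each family holds 1 parent gene and many copies, most of them pseudogenes.

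The families of 6 of the 7 probes show this. In the RefSeq annotation of the GRCr8 assembly, 18 genes bear the name of Rpl39, 16 that of Rps26, 18 that of Rpl37a and 16 that of Rpl30, each count including the parent. Rpl39 lies on chromosome X from 121192901 to 121195896 and is the parent gene of its family. The current names of 5 of the others are Rps26l1 for RGD1565117 (chromosome 7, 64867131 to 64868017), Rpl37al2 for RGD1559951 (chromosome X, 13461207 to 13461509), Rpl30l2 for LOC100362027 (chromosome 10, 37332379 to 37332860), Rpl30-ps7 for RGD1562394 (chromosome 14, 20661074 to 20661415) and Rpl30-ps2 for LOC103690975 (chromosome 1, 44892476 to 44892951). RefSeq annotates the last of these as a pseudogene and the other 6 as protein coding. A probe for a copy may also bind the mRNA of its parent or of other copies. The probe sequences were not used here, and this was not tested.

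The bases around the annotated starts of 4 of the 7 genes are shown, because authentic ribosomal protein genes are known for pyrimidines at this place. Each line gives the gene strand 5′ to 3′ in GRCr8, from 30 bases before the start to 30 bases after it, and capitals mark the longest run of C and T in the 60 bases.
Rpl39 (chrX:121195867-121195926, minus strand): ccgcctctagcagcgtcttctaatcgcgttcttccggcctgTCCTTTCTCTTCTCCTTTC
RGD1565117, Rps26l1 (chr7:64867101-64867160, plus strand): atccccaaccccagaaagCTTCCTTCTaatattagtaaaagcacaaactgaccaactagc
LOC100362027, Rpl30l2 (chr10:37332831-37332890, minus strand): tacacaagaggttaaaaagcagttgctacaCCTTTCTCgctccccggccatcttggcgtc
RGD1562394, Rpl30-ps7 (chr14:20661386-20661445, minus strand): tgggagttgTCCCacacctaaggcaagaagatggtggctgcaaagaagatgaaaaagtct

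In Rpl39 the run filled the 19 bases from position 12 after the start to position 30, where the window ends. It goes on past the window, so its full length is greater. A run of at least 19 bases was found in 0.633% of the 33469 RefSeq windows of the same 60 bases. LOC100362027 had a run of 8 bases that opened at its annotated start, and 23.2% of all windows held one as long. The run was 9 bases in RGD1565117 and lay before the start, while RGD1562394 had 4 bases, fewer than the median of 5 over all windows. An annotated start of a copy need not be a start of transcription.

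The windows shown include 2 of the 3 Rpl30 copies. Over the 300 bases RefSeq gives around each start, the most alike 30-base stretches of LOC100362027 and RGD1562394 shared 22 bases without a gap, against 18 to 20 in the other 5 pairs of the windows shown. Capitals mark the shared bases.
LOC100362027, from 5 bases before its start: ctacaCCTTTcTCgCTCCCcGGCCATCTTG
RGD1562394, from 74 bases before its start: tccttCCTTTtTCaCTCCCtGGCCATCTTG
The stretch lay upstream of the start that RefSeq gives RGD1562394, whose own annotated start opens with the bases atg.

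All 7 probes were detected on all 10 arrays and passed the filter on dim probes, which kept 14519 of the 20174 gene probes. The arrays correlated with each other across probes at 0.982 to 0.992. The number of detected probes was 14028 to 15337 in the control group and 13528 to 14668 in the DEX group, and the mean of the blank spots was 57.1 to 60.5 and 59.9 to 62.6 in raw intensity units. Of 27 markers of heart cell types, 7 have a symbol here, all of them through the study's own lists from these arrays. Of these, 6 are given. The cardiomyocyte genes Ttn and Myocd were detected on all 10 arrays, with ranges of 19.2 to 31.3 and 4.09 to 9.83 in the control group and 13.6 to 17.7 and 3.34 to 4.91 in the DEX group. Endothelial Apold1 (108 to 232 and 82.2 to 133), fibroblast Fap (7.71 to 12.6 and 5.45 to 8.03), immune Ccl3 (5.65 to 9.38 and 7.20 to 14.9) and erythroid Slc4a1 (12.1 to 26.6 and 9.95 to 18.4) were also detected on all arrays. Their part in the results on the 7 probes was not tested, and in such bulk tissue a change in the number of cells of a type cannot be told apart from a change in RNA per cell.

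Rpl39, a protein of the large subunit that lines the tunnel through which new peptide chains leave the ribosome, was the one authentic gene. Its normalized intensity was 577, 687, 419, 941 and 602 on control arrays 1 to 5, and 1057, 1150, 791, 1038 and 889 on DEX arrays 1 to 5. Control 4 lay above DEX 3 and DEX 5, whereas the other 4 control arrays lay below every DEX array. The control mean of 645 ± 192 and the DEX mean of 985 ± 143 (SD, n = 5 each) gave a log2 difference of 0.65 (1.57-fold) with a pooled SD within groups of 0.34 on the log2 scale.

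RGD1565117 is a copy of Rps26, a small subunit protein at the site where the mRNA leaves the ribosome. Its intensity was 219, 282, 185, 411 and 240 on control arrays 1 to 5 and 451, 466, 389, 469 and 378 on DEX arrays 1 to 5. Control 4 again fell among the DEX arrays, above DEX 3 and DEX 5, and the other control arrays stayed below all of them. The means were 267 ± 87.8 and 431 ± 43.7 (SD, n = 5 each), and the log2 difference of 0.74 (1.67-fold) was the highest of the 7.

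RGD1562381 is a copy of a further ribosomal protein gene. It read 123, 134, 86.3, 189 and 140 on control arrays 1 to 5 and 205, 219, 177, 226 and 180 on DEX arrays 1 to 5. Control 4 exceeded DEX 3 and DEX 5 here as well. The means of 135 ± 36.9 and 202 ± 22.4 (SD, n = 5 each) gave a log2 difference of 0.62 (1.54-fold).

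RGD1559951 is a copy of Rpl37a, a zinc-binding protein of the large subunit. It read 417, 474, 326, 701 and 450 on control arrays 1 to 5 and 728, 871, 638, 807 and 596 on DEX arrays 1 to 5. Control 4 was the only control array above any DEX array, again above DEX 3 and DEX 5. The means were 474 ± 139 and 728 ± 114 (SD, n = 5 each), a log2 difference of 0.65 (1.57-fold).

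The other 3 probes are copies of Rpl30, a large subunit protein that binds RNA. LOC100362027 read 375, 567, 325, 603 and 387 on control arrays 1 to 5 and 778, 806, 617, 787 and 595 on DEX arrays 1 to 5. Only control 4 reached into the DEX range, above DEX 5 alone, and the means of 451 ± 125 and 717 ± 102 (SD, n = 5 each) differed by 0.70 on the log2 scale (1.62-fold).

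RGD1562394 read 14.8, 21.4, 14.02, 23.1 and 13.6 on control arrays 1 to 5 and 27.2, 23.9, 19.2, 34.9 and 26.8 on DEX arrays 1 to 5. Here control 2 as well as control 4 lay above DEX 3. The means were 17.4 ± 4.498 and 26.4 ± 5.74 (SD, n = 5 each), with a log2 difference of 0.61 (1.53-fold).

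LOC103690975, the annotated pseudogene, read 123, 116, 106, 167 and 125 on control arrays 1 to 5 and 200, 190, 169, 232 and 174 on DEX arrays 1 to 5. It was the only one of the 7 without overlap between the groups, and the gap between control 4 and DEX 3 was small. The means were 128 ± 23.2 and 193 ± 25.3 (SD, n = 5 each). Its log2 difference of 0.60 (1.52-fold) and its pooled SD of 0.22 were the lowest of the 7.

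**Figure D1:**
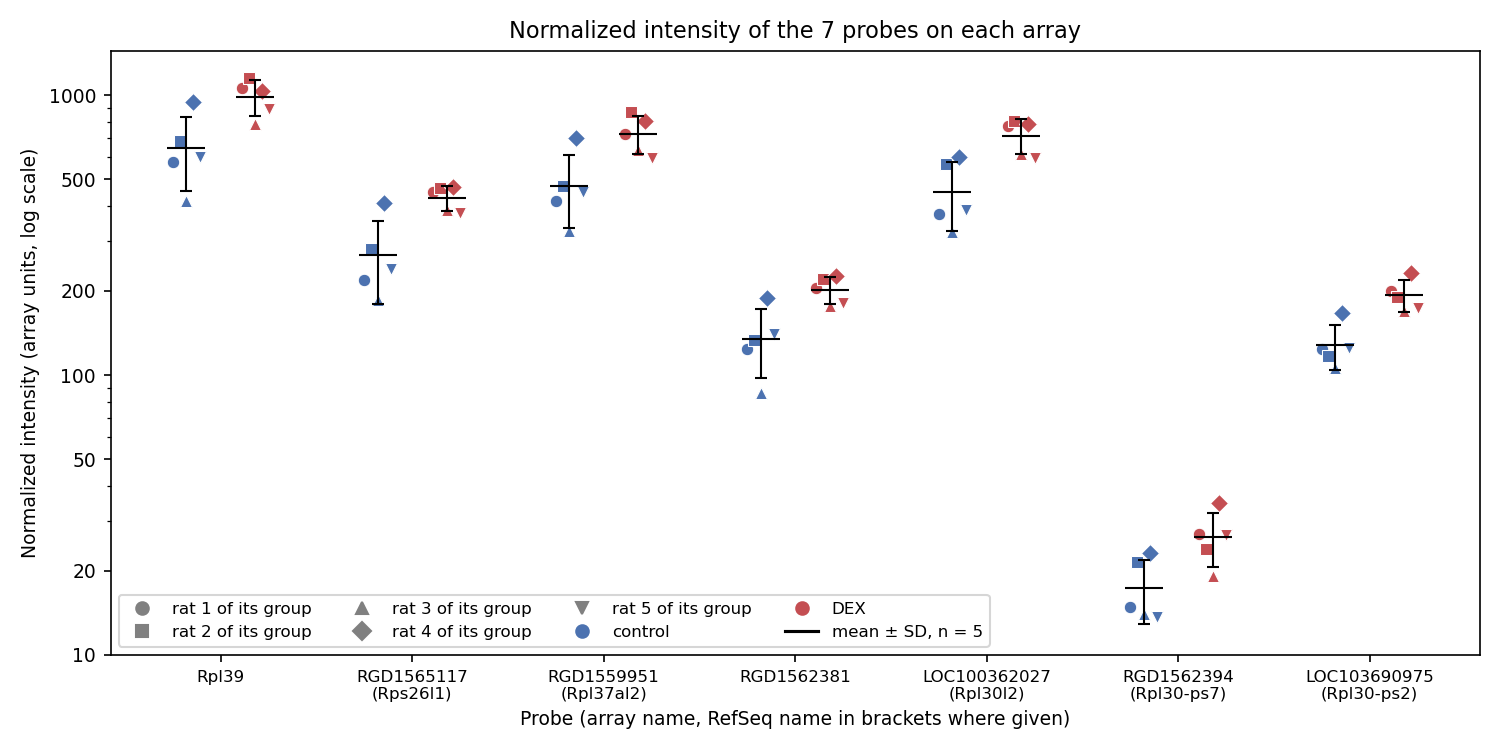
Normalized intensity (log axis, array units) of the 7 probes on each of the 5 control (blue) and 5 DEX (red) arrays, with the mean and SD in black and a marker shape for each rat number within its group. Control 4 (blue diamond) is the highest control array for all 7 probes, and LOC103690975 is the one probe whose groups do not overlap.

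These group differences are what chose the probes. All 7 passed the thresholds of the methods in a limma fit (a 1.5-fold change or more with an unadjusted p under 0.05), as did 0.441% of the tested probes in the higher direction. The groups did not overlap for 1 of the 7, against 0.193% of the tested probes with every DEX array above every control array. The median log2 difference of the 7 was 0.65, against -0.17 over all tested probes, and since the choice fixed this contrast nothing is read from these counts. Of the 7, 2 passed the thresholds without control 3, 4 without DEX 4 and 1 with the blank level as a term of the fit. In the table as deposited, the ratio of the linear means ran from 1.499 (RGD1562381) to 1.61 (RGD1565117) among the 7, and the next lower ratio with a p under 0.05 by the procedure of the methods was 1.495. The median of all tested probes depended on the scaling: after quantile normalization it was -0.02, and the 7 then had a median of 0.77. Relative to all tested probes the 7 stood 0.82 higher on the log2 scale with the median scaling and 0.79 higher after quantile normalization. They stood 0.40 higher after normexp and quantile normalization. Normexp subtracts the background recorded around each spot, whose medians over arrays were 71.9% to 95.1% of the spot for the 7, so it may remove signal. On single arrays it was 56.7% to 100% of Rpl39 spots of 527 to 1365. It was 80.5% to 103% of LOC100362027 spots of 421 to 975. For these 2 probes it lay above the blank spots, which averaged 57.1 to 62.6. For the dimmest probe, RGD1562394, it was 83.8% to 96.1% of spots of 72.4 to 102. What the recorded background holds was not tested.

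The spread of the linear signal in the control group depended on control 4. The coefficient of variation ran from 18.2% (LOC103690975) to 32.8% (RGD1565117) in the control group and from 10.2% (RGD1565117) to 21.8% (RGD1562394) in the DEX group. Without control 4 it was 7.17% (LOC103690975) to 25.6% (LOC100362027) in the control group. No difference in spread was tested.

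The control rats at the ends of the range were nearly the same for all 7 probes. In the control group, control 4 was the highest array for 7 of 7 probes, at 1.32 to 1.60 times the geometric mean of its group, and control 3 was the lowest for 6 of 7, at 0.662 to 0.843 times that mean. The exception was RGD1562394, whose lowest control array was control 5. All 7 probes lay below the group mean on control 1 as well, by 0.03 to 0.23 on the log2 scale. Control 2 had 6 of 7 above the mean, all but LOC103690975, and control 5 had 1 of 7 above it, RGD1562381.

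In the DEX group the ends of the range were split between arrays. DEX 4 was the highest array for 4 probes (RGD1565117, RGD1562381, RGD1562394 and LOC103690975) and DEX 2 for the other 3. DEX 3 was the lowest for Rpl39, RGD1562381, RGD1562394 and LOC103690975, and DEX 5 for the other 3. All 7 probes lay above the group mean on DEX 1 and DEX 4 and below it on DEX 3. On DEX 2, RGD1562394 and LOC103690975 fell below the mean at -0.12 and -0.02 while the other 5 lay 0.12 to 0.27 above it, and on DEX 5, RGD1562394 was the only one above.

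**Figure D2:**
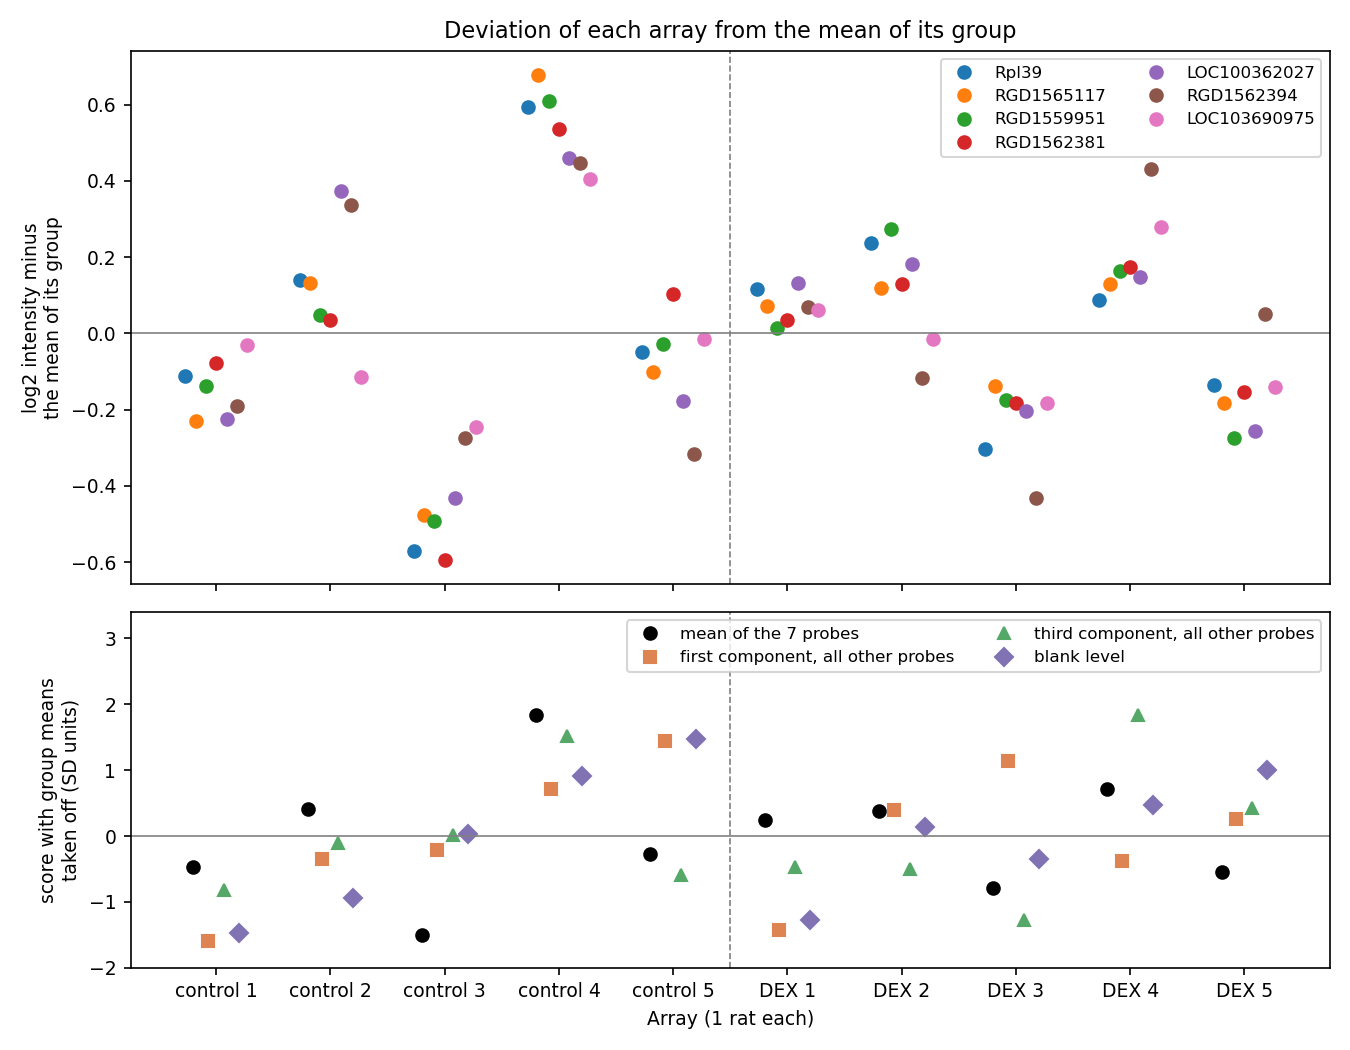
Upper panel, log2 intensity of each of the 7 probes minus the mean of its group on each array; lower panel, the standardized mean of the 7 probes beside the first and the third component of all other probes and the blank level, all with group means taken off. The 7 probes deviate together on control 3 (-0.60 to -0.25) and control 4 (0.41 to 0.68), where the first component has scores of -0.21 and 0.71 SD.

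Covariation was measured over the 10 arrays with the group means taken off, because 5 rats are too few for a coefficient within 1 group. Over the 21 pairs of the 7 probes, Pearson's r was 0.63 to 0.96 with a median of 0.86, and Spearman's rho was 0.65 to 0.98 with a median of 0.82. In exact two-sided permutation tests within groups over 14400 arrangements, p ran from 6.94e-05, the smallest they can give, to 0.0673 for r, and from 6.94e-05 to 0.0691 for rho. For r, 19 of 21 pairs had an exact p under 0.05, and these values are not adjusted for the 21 pairs. Of the 101584 pairs of 1 of the 7 with another tested probe, 3.82% had a positive r with an exact p under 0.05. Among the 21 pairs, the 2 with an exact p for r above 0.05 were RGD1562394 with RGD1559951 (r = 0.64) and with RGD1562381 (r = 0.63).

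Control 3 and control 4 carried part of this. For each pair, the 2 arrays on which its first probe, in the order of the opening paragraph, lay farthest from the group mean were left out. These were control 3 and control 4 for 20 of the 21 pairs. The second probe did not enter this choice: LOC103690975 lay farther out on DEX 4 (0.28) than on control 3 (-0.25). With the 2 arrays left out, r was 0.36 to 0.97 with a median of 0.69. RGD1565117 and LOC100362027, copies of genes of different subunits, then had r = 0.97, whereas LOC100362027 and LOC103690975, both copies of Rpl30, had r = 0.36.

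The pairs did not sort by family. Rpl39, RGD1565117, RGD1559951 and RGD1562381 derive from 4 families, and their 6 pairs had the closest covariation as a set, with r of 0.93 to 0.96. The 3 pairs among the Rpl30 copies had r of 0.69 to 0.79. RGD1562394 was the dimmest of the 7, at spot intensities of 72.4 to 102 where blank spots averaged 57.1 to 62.6. The Rpl30 pair without it, LOC100362027 and LOC103690975, had r = 0.69. A part of signal level in this order was not tested. Set against the mean of the other 6, r was 0.97 for RGD1565117, 0.96 for Rpl39, 0.95 for RGD1559951, 0.93 for RGD1562381, 0.90 for LOC100362027, 0.85 for LOC103690975 and 0.74 for RGD1562394. The neighbours in this order lie close and were not tested against each other. The first principal component of the 7 standardized probes held 86.3% of their variance within groups.

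High correlations are common on these arrays, so the pairs were set beside all pairs of tested probes. Over those 105393421 pairs the median r was 0.34, 17.5% were at or above the lowest of the 21, and 1.79% were at or above their median. Among the 7562 probes with a mean log2 signal no lower than that of RGD1562394, the median r was 0.45, 27.0% of the pairs reached the lowest of the 21 and 3.63% reached their median. Pairs share probes and arrays, so these shares are a description.

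A limma fit over the whole table, with the group and the log2 intensity of Rpl39 as terms, placed the other 6 probes among 14518. By p-value they ranked 7 (RGD1559951), 9 (RGD1565117), 15 (RGD1562381), 44 (LOC100362027), 357 (RGD1562394) and 400 (LOC103690975). Their log2 intensity rose by 0.93, 0.93, 0.88, 0.86, 0.72 and 0.52 per log2 unit of Rpl39 in that order. The unadjusted limma p was 3.14e-04 for RGD1559951 and 0.0228 for LOC103690975, so all 6 were under 0.05 with a positive slope, as were 3.65% of the probes tested. After Benjamini-Hochberg adjustment the limma p was 0.331 to 0.828 for the 6, and 0 of the 14518 probes passed 0.05 (706 had an unadjusted p under 0.05). After quantile normalization 50 probes passed.

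**Figure D3:**
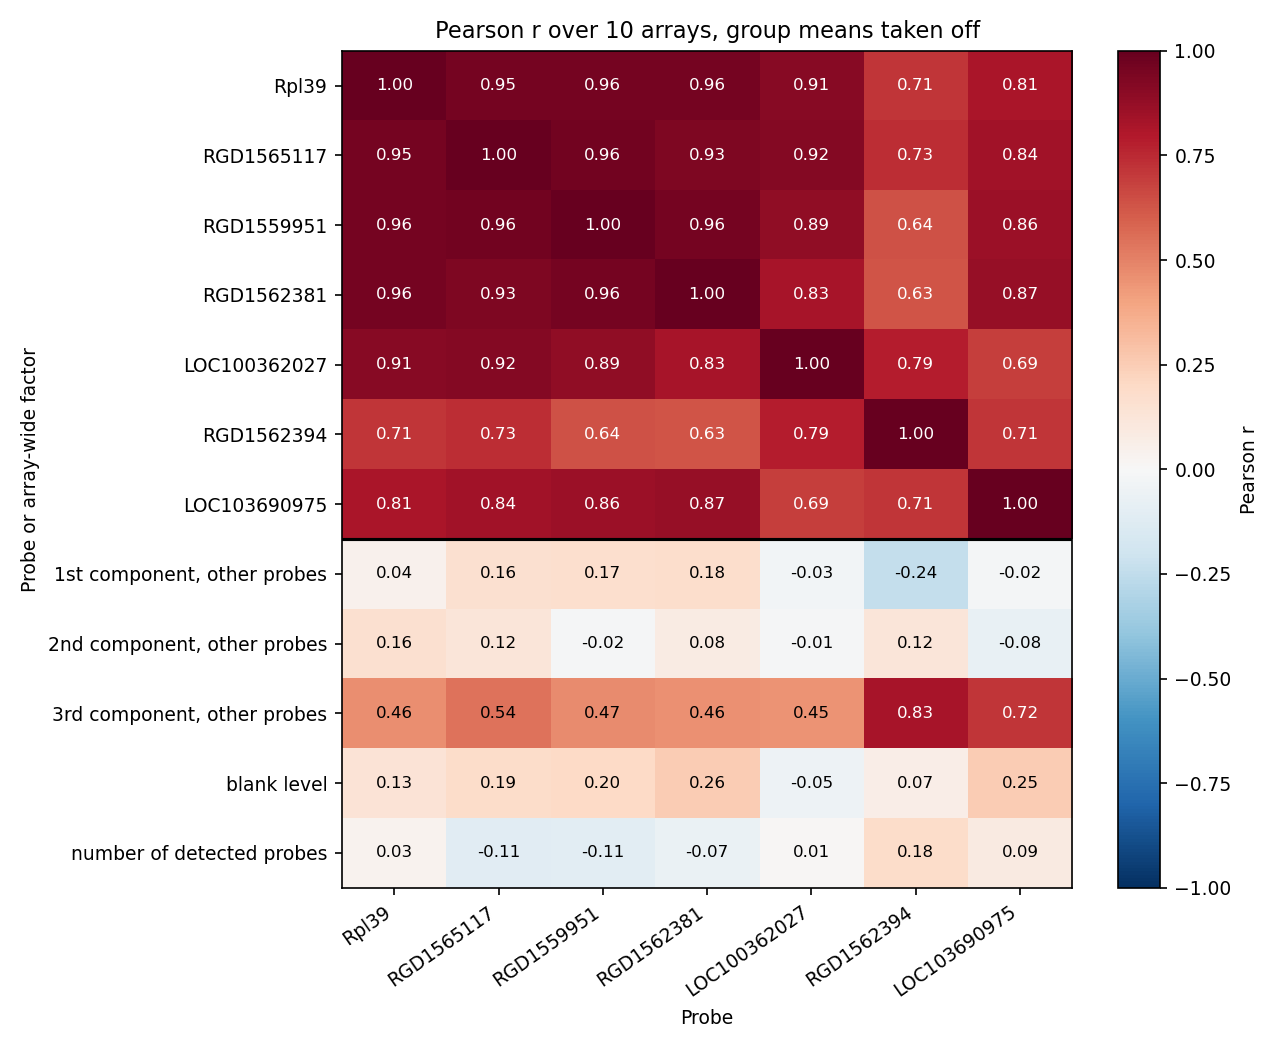
Pearson r over the 10 arrays with group means taken off, among the 7 probes (upper block) and between each probe and 5 array-wide measures (lower block), from -1 (blue) to 1 (red). The block of the 7 probes runs from 0.63 to 0.96, and the rows for the first component, the second component, the blank level and the number of detected probes stay between -0.24 and 0.26.

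Whether 1 array-wide factor held the covariation was examined with measures made without the 7 probes. The first principal component of all other tested probes, with group means taken off, held 30.7% of their variance. It took 0.0353% to 5.65% of the variance of the 7 probes within groups, with a median of 2.58%, against a median of 36.5% over all tested probes. The median r of the 21 pairs was 0.87 after this component was taken off. The share was lowest in LOC103690975 (0.0353%), LOC100362027 (0.0907%) and Rpl39 (0.166%) and highest in RGD1562394 (5.65%).

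The second component held 15.3% of the variance of the other probes and a median of 0.654% of that of the 7. The blank level took 0.260% to 6.55% (median 3.50%), against a median of 22.7% over all tested probes, and the number of detected probes took a median of 0.847%, against 36.1%. In a limma fit with group and blank level as terms, 0 of the 7 had an unadjusted p under 0.05, where 25% of the tested probes had one, and their adjusted limma p was 0.617 to 0.930. With the intensity trend of each array taken off, the variance of each of the 7 within groups grew: as a share taken, this was -0.208% for RGD1562394 to -36.3% for LOC103690975, and the median r of the pairs was 0.90.

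The third component, which held 11.5% of the variance of the other probes, was the exception. It took 20.4% to 68.3% of the variance of the 7 (median 22.4%), against a median of 5.66% over all tested probes, and most in RGD1562394 (68.3%) and LOC103690975 (51.6%). The median r of the pairs was 0.84 with this component taken off. These components were built with the 297 probes that had r of 0.8 or higher with the mean of the 7. Rebuilt without those 297, component 3 held 11.5% of the variance of the probes left. It then took 0.501% to 36.2% of the variance of the 7 (median 2.83%), and component 1 took a median of 2.74%. Because the 297 were chosen for their likeness to the 7, a lower share was largely fixed in advance. The rebuilt component 3 need not be the same component either, so nothing is read from the drop. None of these measures was tested as a cause.

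Place on the array was also recorded. The 7 probes lie in 5 different blocks of the array's 24, with LOC100362027 and RGD1562394 sharing block 11 and RGD1559951 and LOC103690975 sharing block 19. Over 96 tested neighbouring spots, within 2 rows and 2 columns of a member, the median r with that member was 0.03 (LOC100362027) to 0.45 (Rpl39).

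The standardized mean of the 7 probes within groups was then set against each of the other 14512 tested probes. The r was 0.9 or higher for 112 of them and -0.9 or lower for 2. The probe most like the 7 was ENSRNOG00000036909 (r = 0.99), at 134 ± 37.9 in the control group and 203 ± 29.8 in the DEX group (SD, n = 5 each), followed by ENSRNOG00000030364 (r = 0.98), at 981 ± 271 and 1400 ± 196. The most opposed were ENSRNOG00000016303 (r = -0.95) and ENSRNOG00000024934 (r = -0.92). The files give no symbol for these probes. Of the 112, only LOC100911353 has a symbol here, and of 80 cytosolic ribosomal protein genes sought by symbol only Rpl39 has one, so how many of the 112 are ribosomal is not known from these data.

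The group difference of the probes that followed the 7 is given as a description. The 7 were chosen for a higher mean in the DEX group, so probes that share their variation between arrays can share this difference through the choice alone. Of the 112 with r of 0.9 or higher, 110 were higher in the DEX group, with a median log2 difference of 0.45, and 21 passed the thresholds for higher signal. Of the 297 with r of 0.8 or higher, 285 (96.0%) were higher. None of the 13 with r of -0.8 or lower was higher in the DEX group, and their median was -0.28. Over all other tested probes, 20.1% were higher, the median was -0.17, and 57 of the 14512 passed the thresholds for higher signal. The median log2 difference rose from -0.17 at r of 0 to 0.1 through -0.09 at 0.4 to 0.5, 0.03 at 0.6 to 0.7 and 0.14 at 0.7 to 0.8 to 0.30 at 0.8 to 0.9. Both measures come from the same arrays and probes are not independent, so no test is given. After quantile normalization, 97.0% of the 168 probes with r of 0.9 or higher were higher in the DEX group, against 45.8% of all others. After normexp and quantile normalization, 71.1% of 38 such probes were higher, against 56.0% of all others, and their median log2 difference was 0.0094. This last alternative carries the limit given above for the recorded background.

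**Figure D4:**
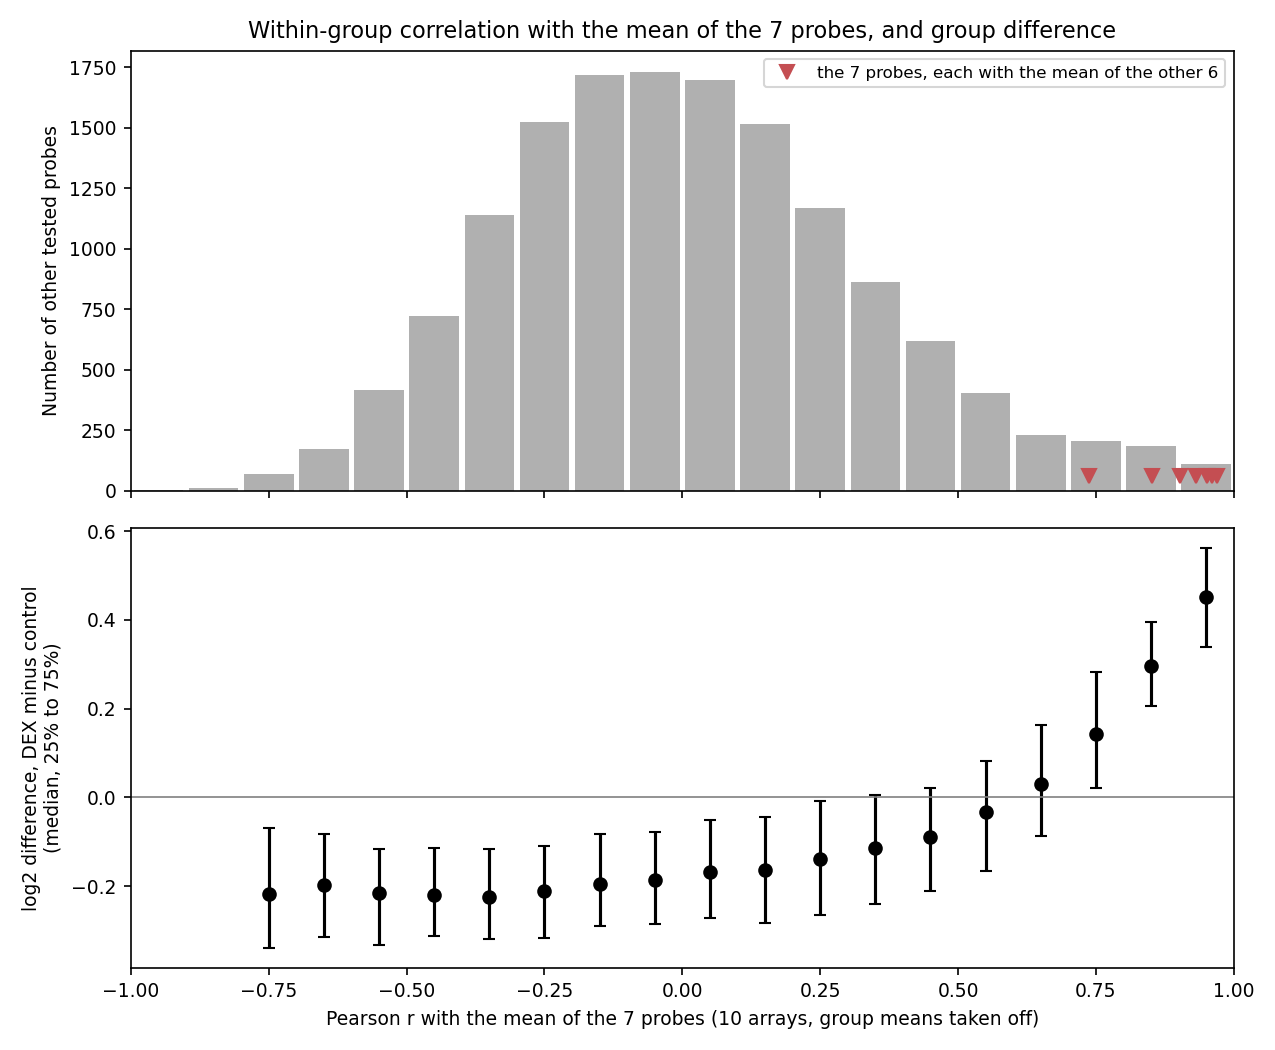
Upper panel, number of the other 14512 tested probes by Pearson r with the standardized mean of the 7 probes (10 arrays, group means taken off), with the 7 probes as red triangles, each set against the mean of the other 6. Lower panel, median and 25% to 75% range of the log2 difference between DEX and control in each bin of at least 20 probes: it is -0.22 at r of -0.8 to -0.7 and 0.45 at 0.9 to 1.

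The study listed 7 other mRNAs as higher in the DEX group, and they did not all follow the ribosomal probes among rats of a group. LOC100911353, now named Poteml2, had r = 0.91 with the mean of the 7, Lefty1 0.74 and Tns4 0.66. The chemokine gene Ccl3 (r = 0.05), Hamp, which encodes the iron hormone hepcidin (r = 0.00), Fam219a (r = -0.08) and Ildr1 (r = -0.22) varied apart from them. The 151 mRNAs listed as lower had r of -0.71 to 0.62, with a median of -0.13.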

How the data were processed

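The authors hybridised Cy5-labelled RNA of 1 rat to each array and deposited the scanner's median spot intensity and a table of normalized intensities, which their methods describe as scaled to a median of 25 for detected signals. From the scanner intensity, a trimmed mean of the 1344 blank spots (68 dropped at either end) was subtracted, spots above that mean plus 2 SD were taken as detected, and each array was scaled to a median of 25. This gave 142667 of 142668 deposited values within rounding (0.5). No background recorded around spots was used.

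Files give Ensembl identifiers only. Symbols came from setting fold changes and p-values against those of the study's lists, where each of 165 mRNAs matched 1 probe. They were computed from the signals recalculated from the scanner intensity, for probes detected on all arrays. The listed fold changes and p-values served for this match alone. Positions and sequences are from RefSeq (GRCr8), and start windows are shown for 4 of the 7 genes. A marker and the family of RGD1562381 are not reported here. Names were given to the 7 probes, ribosomal and marker genes with a symbol, and probes most and least like the mean of the 7. The members and lists were chosen with earlier results of these data known. The alternatives tried included other scalings, normexp with an offset of 50, other filters, the methods' t-test, covariates and single arrays left out. Because the 7 were chosen on the group difference, its direction under these alternatives was largely fixed in advance. A block for the replicate number cannot change it in this balanced design. The median log2 difference of the 7 was 0.65 with and without that block.

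Log2 signals of probes detected in either group on 3 or more of its 5 arrays, with undetected spots at the array's lowest detected signal, were fitted with limma 3.58.1 in R 4.3.3, with Benjamini-Hochberg adjustment over all probes. Correlations and components were computed in Python 3.11.15 with scipy 1.17.1, numpy 2.4.6, pandas 2.3.3 and statsmodels 0.14.6. On simulated data of 14518 probes, 196 of 200 probes made to correlate with Rpl39 at 0.95 within groups had an unadjusted limma p under 0.05 and 68 passed adjustment. At 0.8, 156 and 0 did. Of the unchanged probes, 719 had an unadjusted p under 0.05 and 3 passed adjustment at 0.95, against 695 and 0 at 0.8. The simulated noise was independent between probes, whereas pairs of real probes had a median r of 0.34. The counts therefore need not hold for these arrays. The number of arrays limits the precision.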

Additional observations from a re-analysis of the deposited data

How the results depend on the processing

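As the choice of the 7 made likely, their median log2 difference kept its direction under all 22 alternatives, at 0.40 to 0.80. It was 0.54 to 0.80 with 1 array left out. The thresholds were passed by 6 of the 7 with the methods' t-test on linear values, with array quality weights and without control 1, control 2, control 5 or DEX 2, by 2 after normexp and quantile normalization and without control 3, by 1 with the blank level as a covariate (median difference 0.55), by 4 without DEX 4, and by all 7 under the other alternatives. The difference of LOC100362027 reversed to -0.11 after normexp and quantile normalization. That alternative subtracts the recorded background and may remove signal (medians over arrays 71.9% to 95.1% of the spot for the 7). It lowered the median r of the pairs to 0.32 and the share on their first component to 45.5%. The cause was not tested.

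The 64 probes called higher and 392 called lower became 203 and 98 after quantile normalization, 121 and 216 with 75th percentile scaling, 193 and 114 with scaling on common probes, 112 and 233 with no scaling between arrays (chosen after seeing the data), and 255 and 79 in the fit that held the blank level. Calls of lower signal numbered 105 after normexp and 239 among probes detected on all arrays. With 1 array left out, calls ran from 26 (without control 3) to 131 (without control 4) for higher and from 211 (without control 1) to 682 (without control 5, with 646 without DEX 1) for lower, and 110 were higher without DEX 3. Probes associated with Rpl39 after adjustment numbered 50 after quantile normalization and 0 to 1 with 1 array left out (1 without control 3).

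The median r of the pairs ran from 0.73 (without control 4) to 0.91 with 1 array left out, and the share on their first component from 78.0% (without control 4) to 90.0% (without control 2). That share was 93.8% with group means left in and, in alternatives chosen after seeing the data, 82.0% with the third component taken off and 74.2% without control 3 and control 4, where the median r was 0.69. The share of variance taken by the first component of all other probes was 10.3% after quantile normalization, 5.16% with 75th percentile scaling, 5.03% with scaling on common probes and 1.15% to 6.16% with 1 array left out. For other factors it was 22.4% (the third component, chosen after seeing the data) and -17.0% (intensity trend).

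The labels link same-numbered control and DEX rats by a number only. The correlations of their deviations were -0.10 to 0.07, with 0 of 5 pairs over 0.1. Some array-wide measures did go with the number in both groups. The blank level was lowest on control 1 (57.1) and DEX 1 (59.9) and highest on control 5 (60.5) and DEX 5 (62.6). The number of detected probes was highest on control 1 (15337) and DEX 1 (14668). What the number stands for is not given, and this was not tested. With the replicate number as a block, 66 probes were called higher and 383 lower, 0 were associated with Rpl39 after adjustment, the median r was 0.81 and the share on the first component 75.2%.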
